A study of Mus musculus with 2 samples.

Results

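The 2 paralogue clusters of miR-17~92 in the mouse genome hold 9 microRNA (miRNA) genes, which were taken by name from the 1973 miRNA genes of the count tables. Mir106b, Mir93 and Mir25 form miR-106b~25 on chromosome 5, and Mir106a, Mir18b, Mir20b, Mir19b-2, Mir92-2 and Mir363 form miR-106a~miR-363 on the X chromosome. Small RNA under 30 nt was sequenced from forebrain of B6NCrl mouse embryos at 14.5 days (E14.5), with no treatment or altered gene named in the labels. The labels give 2 biological replicates and 1 group, so the design holds no contrast between conditions. Each library is described as 1 forebrain taken on its own day, yet both carry the same donor identifier and a sex given as pooled, so the spread between them may be partly technical. All 9 genes were detected, which here means at least 10 counts in both libraries, as were 399 of all miRNA genes.

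A miRNA is cut from a hairpin in a longer transcript, and its seed, bases 2 to 8 of the mature strand, pairs with messenger RNAs that are then repressed. The miR-17~92 cluster, made from the transcript Mir17hg on chromosome 14, and its paralogues arose by duplication and carry miRNAs of 4 seed groups. The miR-17 seed is known for repressing the cell cycle inhibitor Cdkn1a, and both the miR-17 and the miR-25/92 seeds for repressing the cell death gene Bcl2l11. In mice, miR-17~92 is needed for expansion of cortical neural progenitors, and miR-106b~25 has been reported to promote proliferation of adult neural stem and progenitor cells.

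The mature sequences are shown because they place each paralogue in its seed group and show how closely it resembles its miR-17~92 counterpart. They are RefSeq sequences on GRCm38.p6, written 5′ to 3′, and capitals mark the seed. The miR-17 seed group has 4 paralogue members, followed here by miR-17 and miR-20a of miR-17~92.
miR-106b-5p: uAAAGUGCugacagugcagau
miR-93-5p: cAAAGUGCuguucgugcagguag
miR-106a-5p: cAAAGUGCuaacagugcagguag
miR-20b-5p: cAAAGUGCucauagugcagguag
miR-17-5p: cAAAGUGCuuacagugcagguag
miR-20a-5p: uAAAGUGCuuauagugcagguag
The miR-18 seed group has 1 paralogue member, shown with miR-18a of miR-17~92.
miR-18b-5p: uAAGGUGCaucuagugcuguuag
miR-18a-5p: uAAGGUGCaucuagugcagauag
The miR-19 seed group also has 1, since Mir19b-2 encodes the same mature miR-19b-3p as Mir19b-1, and is shown with miR-19a.
miR-19b-3p: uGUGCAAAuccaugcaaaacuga
miR-19a-3p: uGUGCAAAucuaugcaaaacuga
The miR-25/92 seed group has 3, of which Mir92-2 encodes the same miR-92a-3p as Mir92-1.
miR-25-3p: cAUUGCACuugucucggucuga
miR-92a-3p: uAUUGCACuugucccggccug
miR-363-3p: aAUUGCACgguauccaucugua

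With positions counted from the 5′ end and the miR-17~92 base given first, miR-106a differs from miR-17 only at U10A, and miR-20b differs from miR-20a at U1C and U10C. miR-93 differs from miR-17 at U10G, A11U, C12U and A13C. Over its 21 bases, miR-106b differs from miR-17 at C1U, U10G and G20A. miR-18b differs from miR-18a at A18U and A20U. miR-25 differs from miR-92a at U1C, C14U and C18U over 21 bases, whereas miR-363 differs from it at 11 of 21 positions, all outside the seed.

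In the mm10 build used by the files, with positions from GENCODE, miR-106b~25 spans chr5:138165321-138165818 on the minus strand, 498 nt from end to end. Its hairpins lie in intron 13 of the annotated Mcm7 transcript with the most exons (15). Mcm7 encodes a subunit of the helicase that licenses and unwinds DNA in replication. Mir93 and Mir25 also lie within an exon of a shorter Mcm7 transcript annotated as retaining an intron. The hairpins of Mir106b (ENSMUSG00000065514.1), Mir93 (ENSMUSG00000065527.1) and Mir25 (ENSMUSG00000065394.1) are at 138165737-138165818, 138165523-138165610 and 138165321-138165404, which puts Mir93 208 nt and Mir25 414 nt downstream of Mir106b.

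The miR-106a~miR-363 cluster spans chrX:52741693-52742567, also on the minus strand, over 875 nt. Mir106a (ENSMUSG00000065456.1, 52742503-52742567) reaches into an exon of the non-coding gene Kis2 at one end, and the other 5 hairpins overlap no annotated gene that is not a miRNA. In the direction of transcription these are Mir18b (ENSMUSG00000077111.2, 52742331-52742413), Mir20b (ENSMUSG00000076041.1, 52742113-52742192), Mir19b-2 (ENSMUSG00000065473.1, 52741983-52742066), Mir92-2 (ENSMUSG00000065613.1, 52741838-52741928) and Mir363 (ENSMUSG00000070106.1, 52741693-52741767). By comparison, the 6 hairpins of miR-17~92 lie in exon 2 of Mir17hg.

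The libraries held 18598385 reads in replicate 1 and 20638071 in replicate 2, of which 7080317 and 7946585 were counted on the strand of a miRNA gene. Levels are given in counts per 1000000 of those miRNA counts (CPM). Reads that match several places (multi-mapping) are a total apart from these counts, so ranks and shares of miRNA counts do not include them. A miRNA with several gene copies may therefore rank lower here than in the tissue. Of the neural miRNA list, 9 of the 10 genes in the tables were detected. Their summed level was 14889 CPM in replicate 1 and 13840 CPM in replicate 2, mostly from Mir137 (7955 and 7274 CPM) and Mir92b (3407 and 2786 CPM). Mir128-1 (582 and 930 CPM), Mir128-2 (531 and 758 CPM), Mir9-2 (3.95 and 6.04 CPM) and Mir124a-2 (1.41 and 2.14 CPM) were instead higher in replicate 2. The miR-9, miR-124 and miR-128 genes of this list have further copies, and reads shared between copies may be missing from these counts. Low counts of these genes are thus no sign of low miRNA levels, and the sum is no measure of neural content. The tissue holds many cell types, and fewer cells that express a miRNA cannot be told apart from less miRNA per cell.

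The 9 genes together took 2.32% of miRNA counts in replicate 1 and 2.04% in replicate 2, a mean of 2.18% ± 0.197 (SD, n = 2 here and below). Nearly all of this came from miR-106b~25, at 2.19% and 1.95% (mean 2.07% ± 0.166). The miR-106a~miR-363 cluster held 0.130% in replicate 1 and 0.0858% in replicate 2 (mean 0.108% ± 0.0315). In counted reads, the chromosome 5 cluster was thus 16.8-fold above the X-linked cluster in replicate 1 and 22.8-fold above it in replicate 2. The libraries of the clusters did not overlap. The X-linked sum may lack reads of Mir19b-2 and Mir92-2, for the reason given below.

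Members with the miR-17 seed were the most abundant. Mir93 was the highest paralogue, with 96054 counts (13566 CPM) in replicate 1 and 87612 counts (11025 CPM) in replicate 2, a mean of 12296 ± 1797 CPM and rank 15 among all miRNA genes. Mir106b had 53146 counts (7506 CPM) in replicate 1 and 62800 counts (7903 CPM) in replicate 2, a mean of 7704 ± 280.4 CPM and rank 22. Both lay among the well-expressed miRNAs of the tissue, since Mir26b (13126 ± 908 CPM) stood next above Mir93 and Mir137 (7614 ± 481 CPM), a neuronal miRNA, stood next below Mir106b.

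The X-linked members with the same seed were far lower. Mir106a had 3697 counts (522 CPM) in replicate 1 and 2601 counts (327 CPM) in replicate 2, a mean of 425 ± 138 CPM and rank 113. Mir20b had 2380 counts (336 CPM) in replicate 1 and 1687 counts (212 CPM) in replicate 2, a mean of 274 ± 87.6 CPM and rank 131. Both genes were higher in replicate 1, and Mir106a stood 1.55-fold above Mir20b in replicate 1 and 1.54-fold above it in replicate 2.

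Among members with the miR-25/92 seed, Mir25 led with 5695 counts (804 CPM) in replicate 1 and 4828 counts (608 CPM) in replicate 2, a mean of 706 ± 139 CPM and rank 93. Mir363 had 2451 counts (346 CPM) in replicate 1 and 2014 counts (253 CPM) in replicate 2, a mean of 299.8 ± 65.6 CPM. Mir92-2 had 410 counts (57.9 CPM) in replicate 1 and 318 counts (40.0 CPM) in replicate 2, a mean of 49.0 ± 12.7 CPM. The 3 genes were higher in replicate 1, and the libraries of one did not overlap those of another.

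The remaining members were low. Mir18b, the miR-18 member, had 271 counts (38.3 CPM) in replicate 1 and 186 counts (23.4 CPM) in replicate 2, a mean of 30.8 ± 10.5 CPM and rank 252. Mir19b-2, the miR-19 member, was the lowest, with 18 counts (2.54 CPM) in replicate 1 and 14 counts (1.76 CPM) in replicate 2, a mean of 2.15 ± 0.552 CPM and rank 376. Its counts were above the floor of 3 counts, which was 0.424 CPM in replicate 1 and 0.378 CPM in replicate 2.

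**Figure D1:**
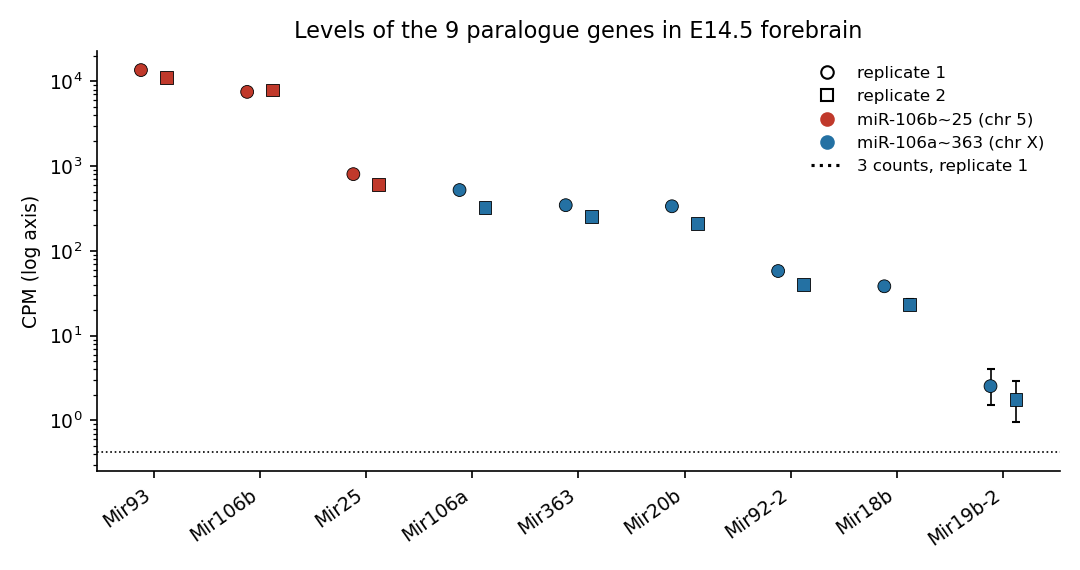
CPM on a log axis of the 9 paralogue genes in each library, replicate 1 as circles and replicate 2 as squares, ordered by mean; bars are 95% exact Poisson intervals of the count, which cover counting error only and are smaller than most symbols, and the dotted line is 3 counts in replicate 1. The genes run from Mir93 at 13566 and 11025 CPM to Mir19b-2 at 2.54 and 1.76 CPM, and the 3 genes of miR-106b~25 lie above all 6 of miR-106a~miR-363.

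The order of mean levels was Mir93, Mir106b, Mir25, Mir106a, Mir363, Mir20b, Mir92-2, Mir18b and Mir19b-2. The library ranges of neighbours in this order overlapped in 2 places only, Mir106a with Mir363 and Mir363 with Mir20b. Within each library the order of these 3 was the same, with Mir106a 1.51-fold above Mir363 in replicate 1 and 1.29-fold above it in replicate 2, and Mir363 above Mir20b in both. The 3 genes lie close together in the log-scale plot of the 9 genes, and the step from Mir106b down to Mir25 was 10.9-fold. Levels belong to whole hairpin genes, since the counts do not separate the 5′ and 3′ arms.

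Within miR-106b~25 the counts were dominated by the first 2 hairpins. Mir93 held 62.0% of the cluster in replicate 1 and 56.4% in replicate 2, and Mir106b held 34.3% and 40.5%. Mir25 contributed 3.68% and 3.11%. Mir93 was 1.81-fold above Mir106b in replicate 1 and 1.40-fold above it in replicate 2, so that ratio shifted between the libraries, while Mir93 was 16.9-fold above Mir25 in replicate 1 and 18.1-fold above it in replicate 2.

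Within miR-106a~miR-363 no gene dominated in this way. Mir106a held 40.1% of the cluster in replicate 1 and 38.1% in replicate 2, Mir363 held 26.6% and 29.5%, and Mir20b held 25.8% and 24.7%. Mir92-2 held 4.44% and 4.66%, Mir18b 2.94% and 2.73%, and Mir19b-2 0.195% and 0.205%. Mir106a was 205-fold above Mir19b-2 in replicate 1 and 186-fold above it in replicate 2, with the 5′ ends of the hairpins 501 nt apart on one strand.

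**Figure D2:**
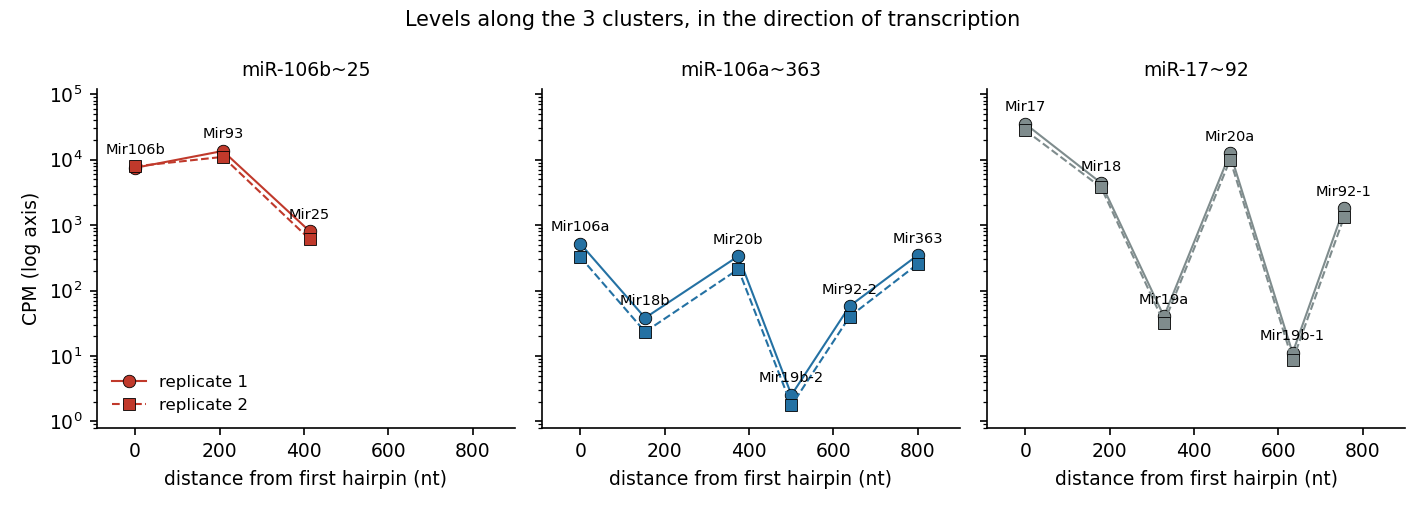
CPM on a log axis of each hairpin gene against its distance in nt from the first hairpin of its cluster, in the direction of transcription, with replicate 1 as circles and solid lines and replicate 2 as squares and dashed lines; lines only join neighbours. In miR-106a~miR-363 and in miR-17~92 the first hairpin is the highest and the hairpin of miR-19b the lowest, at 2.54 and 1.76 CPM for Mir19b-2 and 11.2 and 8.56 CPM for Mir19b-1.

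The counts of Mir19b-2 and Mir92-2 carry a limit of their own. The tables give multi-mapping reads as a total apart from the gene counts, 43.3% of reads in replicate 1 and 42.2% in replicate 2, and the counting method behind that total is not stated. The mature miR-19b-3p and miR-92a-3p sequences each occur in 2 annotated hairpins, one on the X chromosome and one in Mir17hg, so a read of either mature strand alone matches both copies. The hairpins are shown with the longest run that the X-linked and the Mir17hg copy share in capitals, which is 25 nt for miR-19b and 22 nt for miR-92a and holds the whole mature sequence. They are RefSeq hairpins on GRCm38.p6, at chrX:52741983-52742066 (minus strand), chr14:115044305-115044391 (plus strand), chrX:52741838-52741928 (minus strand) and chr14:115044427-115044506 (plus strand).
Mir19b-2: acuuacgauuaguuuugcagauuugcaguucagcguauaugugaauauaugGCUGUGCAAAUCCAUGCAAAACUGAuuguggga
Mir19b-1: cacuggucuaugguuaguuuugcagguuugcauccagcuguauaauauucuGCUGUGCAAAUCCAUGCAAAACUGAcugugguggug
Mir92-2: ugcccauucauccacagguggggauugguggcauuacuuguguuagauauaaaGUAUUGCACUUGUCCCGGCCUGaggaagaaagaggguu
Mir92-1: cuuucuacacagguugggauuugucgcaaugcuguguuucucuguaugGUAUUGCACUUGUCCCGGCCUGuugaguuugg
The tables do not say which part of a hairpin the counted reads cover, so the counts of these genes cannot be taken as the levels of miR-19b-3p and miR-92a-3p, and the part of shared sequence in their low counts was not tested. The other 7 paralogue hairpins shared at most 17 nt with any other annotated hairpin, Mir18b with Mir18. Mir19a, whose mature sequence occurs in 1 annotated hairpin, was also low, with 40.3 CPM in replicate 1 and 32.2 CPM in replicate 2. That sequence differs from miR-19b-3p at 1 of 23 bases, and how the alignment treated mismatches is not given. The source of its low level was not tested.

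Each paralogue except Mir363 was then set beside its miR-17~92 counterpart, which asks how the counts of a shared seed divide between the copies. Mir363 was not paired, since its mature sequence differs from miR-92a at 11 of 21 positions. It had 346 CPM in replicate 1 and 253 CPM in replicate 2, beside 1819 and 1319 CPM for Mir92-1. Mir93 was close to Mir20a, at 1.08 times its counts in replicate 1 and 1.10 times in replicate 2, and their library ranges overlapped (12296 ± 1797 CPM for Mir93, 11310 ± 1834 CPM for Mir20a). Mir106b reached 0.213 and 0.281 of the counts of Mir17, which averaged 31722 ± 5021 CPM and ranked 6 among all miRNA genes. Mir25 reached 0.442 and 0.461 of the counts of Mir92-1, though the mature strand of Mir92-1 is among those with 2 annotated copies.

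Mir106a, Mir20b and Mir18b, paired X-linked copies whose mature sequences differ from those of miR-17~92, were lower by more than an order of magnitude. They differ by few bases, and how the alignment treated mismatches is not given in the sources used here. Mir106a was 67.6-fold below Mir17 in replicate 1 and 86.1-fold below it in replicate 2. Mir20b was 37.5-fold and 47.2-fold below Mir20a. Mir18b was 115-fold and 161-fold below Mir18, the gene of miR-18a, which averaged 4078 ± 442 CPM. For the copies with a shared mature sequence, Mir92-2 was 31.4-fold and 33.0-fold below Mir92-1, and Mir19b-2 had 0.228 and 0.206 of the counts of Mir19b-1, from 18 and 14 counts.

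Summed over genes, miR-17~92 held 5.41% of miRNA counts in replicate 1 and 4.33% in replicate 2 (mean 4.87% ± 0.766), so miR-106b~25 lay 2.47-fold and 2.22-fold below it and miR-106a~miR-363 41.5-fold and 50.5-fold below it. Of all counts on the 15 genes of the 3 clusters, miR-106b~25 took 28.3% in replicate 1 and 30.7% in replicate 2, miR-106a~miR-363 took 1.69% and 1.35%, and miR-17~92 took 70.0% and 68.0%. In both libraries the order of the 3 clusters was the same. Reads of miR-19b-3p and miR-92a-3p that were counted as multi-mapping would be missing from the sums of miR-17~92 and miR-106a~miR-363. No mature sequence shown for miR-106b~25 occurs in a further annotated hairpin, so these folds and shares hold for counted reads only.

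The paralogues' part differed by seed. For the miR-17 seed, both paralogue clusters together supplied 31.4% of the group's counts in replicate 1, against 33.8% in replicate 2 (mean 32.6% ± 1.66), of which miR-106b~25 supplied 30.2% and 32.8%. The only annotated relative outside the clusters, Mir6383, had 0 counts in both libraries. For the miR-18 seed, Mir18b supplied 0.864% in replicate 1 and 0.618% in replicate 2, with Mir18 supplying the rest. For the miR-19 seed, Mir19b-2 supplied 4.71% and 4.14% of a total of only 54.0 and 42.5 CPM. Reads of miR-19b-3p that were counted as multi-mapping would be in neither this share nor this total.

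For the miR-25/92 seed, the paralogues supplied 18.3% in replicate 1 and 17.5% in replicate 2 (mean 17.9% ± 0.589), of which 12.2% and 11.8% came from Mir25. Here the largest part came from outside the 3 clusters, at 54.1% in replicate 1 and 56.9% in replicate 2. Mir92b, a relative known from neural progenitors, had 3407 CPM in replicate 1 and 2786 CPM in replicate 2 (mean 3097 ± 439 CPM), which was 4.24-fold and 4.59-fold above Mir25. Mir32 had 161 and 145 CPM, and Mir367, a miRNA of pluripotent cells, had 0 counts. Reads of miR-92a-3p that were counted as multi-mapping would not be in these shares.

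**Figure D3:**
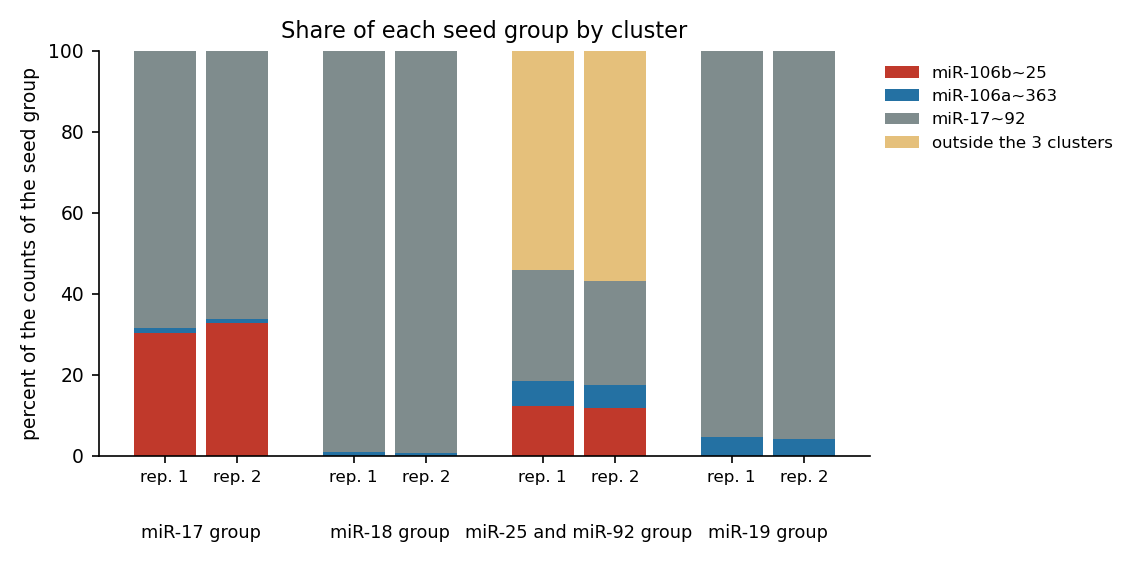
Percent of the counts of each seed group, per library, that came from each of the 3 clusters or from outside them; each bar is 1 library and sums to 100%. The paralogues supply 31.4% and 33.8% of the miR-17 group but 0.864% and 0.618% of the miR-18 group, and genes outside the clusters supply 54.1% and 56.9% of the miR-25 and miR-92 group. Reads of miR-92a-3p and miR-19b-3p that were counted as multi-mapping would not be in these shares.

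The one contrast the data allow is between the libraries, and in it the X-linked cluster stood higher in replicate 1. Each gene was tested against all other miRNA counts by a two-sided Fisher's exact test with Benjamini-Hochberg adjustment over 445 genes, which knows counting error only and compares these libraries, not conditions. Of the 9 paralogues, 7 passed at 0.05 as higher in replicate 1, 1 as higher in replicate 2, and Mir19b-2 did not pass. At this depth the background was high, with 47.9% of tested genes passing in either direction. Of all tested genes, 31.2% passed as higher in replicate 1 and 16.6% as higher in replicate 2. Among the 286 genes with at least 100 counts in either library, 127 passed as higher in replicate 1 and 72 as higher in replicate 2. These are larger shares than over all 445 genes, so passing alone says little and the sizes matter.

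The median log2 ratio of replicate 1 over replicate 2 was 0.53 for the 9 genes, beside 0.09 for all detected genes, and 8 of 9 were above 0. Most detected genes leaned the same way, since 278 of 399 had ratios above that of Mir106b, the member below 0. The 9 genes lie in 2 clusters, so they are not separate observations. Mir18b had the largest ratio, 1.64-fold (95% exact interval 1.35 to 1.98, adjusted p = 7.59e-07 by Fisher's exact test). Mir106a was 1.60-fold higher in replicate 1 (1.52 to 1.68, adjusted p = 1.09e-74 by the same exact test), and Mir20b 1.58-fold (1.49 to 1.69). Of the detected genes, 13, 15 and 17 had ratios above those of Mir18b, Mir106a and Mir20b.

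Mir92-2 was 1.45-fold higher in replicate 1 (1.25 to 1.68) and Mir363 1.37-fold (1.29 to 1.45), while Mir19b-2 had a ratio of 1.44 with an interval of 0.678 to 3.13 (adjusted p = 0.491, Fisher's exact test), too wide to show a difference at its depth. In all, 24 detected genes, 6.02%, were at least 1.5-fold higher in replicate 1, and the median distance of a detected gene between the libraries was 1.17-fold. The other 36 detected X-linked miRNA genes had a median log2 ratio of 0.05.

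The chromosome 5 genes did not move together between the libraries. Mir93 was 1.23-fold higher in replicate 1 (1.22 to 1.24) and Mir25 1.32-fold (1.27 to 1.38). Mir106b was lower in replicate 1, with a ratio of 0.95 (0.939 to 0.961, adjusted p = 9.24e-18, Fisher's exact test). The genes of miR-17~92 were 1.17-fold (Mir18) to 1.38-fold (Mir92-1) higher in replicate 1.

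Summed over its genes, miR-106a~miR-363 was 1.52-fold higher in replicate 1 (1.47 to 1.57), miR-106b~25 1.12-fold (1.11 to 1.13) and miR-17~92 1.25-fold. These ratios differed between clusters by a Fisher's exact test (two-sided) on the counts of cluster by library, adjusted over 3 comparisons, which does not depend on how the libraries are scaled. The log2 ratio of miR-106a~miR-363 exceeded that of miR-106b~25 by 0.44 (adjusted p = 7.49e-78, exact test) and that of miR-17~92 by 0.28 (adjusted p = 1.13e-33, exact test). That of miR-106b~25 was 0.16 below miR-17~92, a difference of -0.16 (adjusted p = 2.11e-144, exact test), which came to -0.02 (adjusted p = 0.0210, exact test) without Mir106b, a comparison made after its ratio was seen. The same removal brought the excess of miR-106a~miR-363 over miR-106b~25 from 0.44 to 0.30. Without the highest gene of each cluster, the 3 differences in the order given were 0.59, 0.24 and -0.35, so their sizes depended on single genes.

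**Figure D4:**
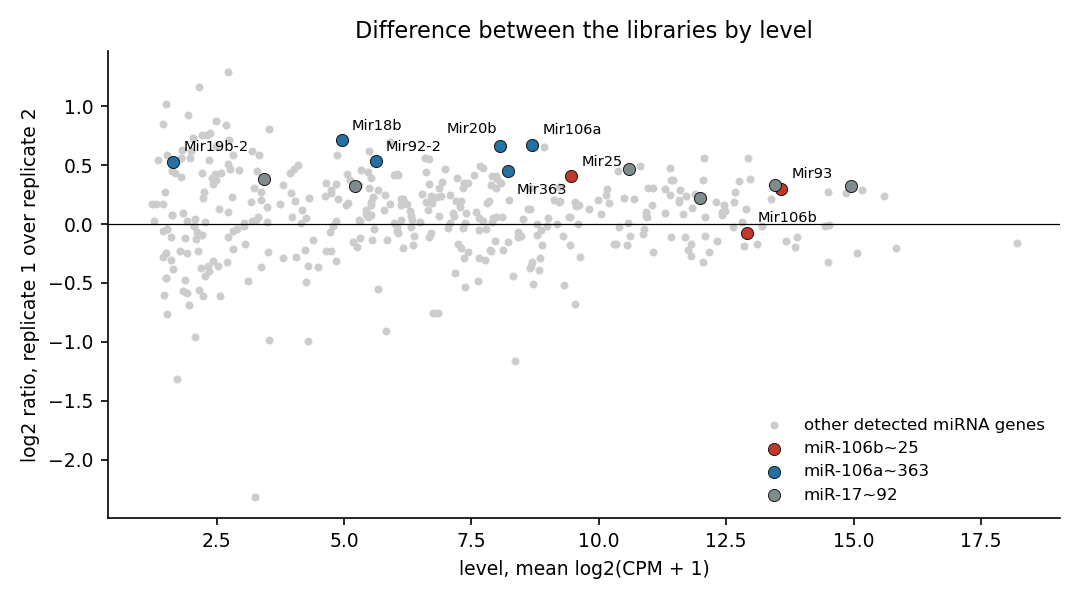
Log2 ratio of replicate 1 over replicate 2 against the mean log2(CPM + 1) of each detected miRNA gene, with the 2 paralogue clusters and miR-17~92 in colour and the other genes in grey. The 6 genes of miR-106a~miR-363 lie between 0.45 and 0.71, and Mir106b, at -0.07, is the only gene of the 3 clusters below 0.

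Some marker lists of other cell types also differed between the libraries. The 5 epithelial miRNAs together had 367 CPM in replicate 1, against 751 CPM in replicate 2, and the 2 erythroid miRNAs had 400.0 and 537 CPM. The pluripotent list, with 4 of 7 detected and Mir367 and Mir290a at 0, had 381 and 314 CPM. The single endothelial miRNA was nearly equal, at 22103 and 22365 CPM. The liver miRNA had 10.3 and 10.2 CPM, and the muscle list, with 1 of 3 genes in the tables detected, 19.2 and 13.6 CPM; Mir1a-1 and Mir133a-1 were at 0, which is no sign of absent muscle if reads shared with their second copies were left out. The part of these lists in the ratios of the paralogues was not tested. Scaling the libraries by the trimmed mean of M values lowered every log2 ratio by 0.11, a shift of -0.11, and left 7 paralogues passing as higher in replicate 1 and Mir106b as higher in replicate 2. Under that scaling 92 of all genes passed as higher in replicate 1 and 102 as higher in replicate 2, beside 139 and 74 with totals.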

How the data were processed

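The authors deposited a table of whole-number read counts per miRNA gene for each library. The build was mm10 and the annotation GENCODE M4, per the accompanying README. Which aligner and counter were run is not given in the sources used here. Counts on the gene's strand were used. Unmapped (16.5% of reads in replicate 1, 17.0% in replicate 2), multi-mapping (43.3% and 42.2%), ambiguous and unannotated reads are separate totals and were kept out of library sizes. A single count equals 0.141 CPM in replicate 1, against 0.126 CPM in replicate 2. No molecular identifiers are named, so every interval and floor covers counting error alone.

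CPM (per 1000000 on-strand miRNA counts), means and SDs were computed here with Python 3.11.15, pandas 2.3.3 and scipy 1.17.1. Names and positions came from GENCODE M21 on the same assembly (1894 of 1973 IDs matched, 79 did not), and sequences from RefSeq, where all 9 genes matched. Fisher's exact tests covered genes with at least 10 counts in either library and were checked on simulated data. Those data held counting error and set changes only, so the check does not cover other spread between replicates. Ratios give replicate 1 over replicate 2, with exact conditional intervals. Alternatives used edgeR 4.0.16 scaling (TMM), DESeq2 1.42.0 size factors, other filters, strands and totals. The text names all 9 genes, the 6 of miR-17~92, seed relatives, host genes, neighbours in rank, markers and, for the highest gene of each paralogue cluster, the 3 genes nearest to it in level. The members and lists were chosen with earlier results of these data known.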

Additional observations from a re-analysis of the deposited data

How the results depend on the processing

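All 53 ratios of the 9 genes recomputed under other settings kept their direction and their side of the test. Much of this was fixed in advance, since a filter on counts cannot change a ratio and a rescaling shifts every ratio by the same amount. The setting of at least 1.5-fold, given below, is not among the 53. The levels of the 9 genes moved by less than the SD with counts on either strand or a pseudocount of 0.5; leaving out 1 of 2 libraries or rescaling one library against the other cannot move a mean log level past its SD here, so those settings say nothing of its stability. Leaving Mir99a, the most abundant gene, out of the total moved all 9 levels up and raised the shares of miRNA counts to 2.96% for miR-106b~25, 0.154% for miR-106a~miR-363 and 3.11% for the 9 genes. Leaving out one library in turn gave 1.95% to 2.19%, 0.0858% to 0.130% and 2.04% to 2.32%. Requiring at least 1.5-fold left 3 paralogues higher in replicate 1 and 0 higher in replicate 2, against 20 and 14 of all genes. Of all genes, 139 were higher in replicate 1 and 74 in replicate 2 with totals, 92 and 102 with TMM, 98 and 94 with median-of-ratios size factors, and 106 and 88 without Mir99a; 7 and 1 paralogues passed in each of these. Each log2 ratio shifted by -0.11, -0.09 and -0.07 in these. Mir19b-2 has no value at a minimum of 100 counts, where 286 genes were tested. Without Mir19b-2, Mir92-2 and the other genes that share 20 nt with another hairpin, miR-106a~miR-363 held 0.103% of the counts. No paired analysis was possible because there is only 1 group. Precision is limited by 2 libraries, and for Mir19b-2 by its 18 and 14 counts.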

Other observations

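By the distance between their pairs of log2(CPM + 1) values in the 2 libraries, the genes outside the 3 clusters nearest to Mir93 were Mir30a (0.28), Mir26b (0.34) and Mir149 (0.53). Those nearest to Mir106a were Mir300 (0.26), Mir28a (0.32) and Mir330 (0.39). With 2 libraries of 1 tissue this is a likeness of level only.

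Each paralogue overlapped its neighbours in the order of all miRNA genes. Mir25 stood between Mir351 (738 ± 67.0 CPM) and Mir467e (695 ± 21.5 CPM), and Mir106a between Mir770 (442 ± 0.660 CPM) and Mir132 (421 ± 104 CPM). Mir18b stood between Mir181b-1 (31.8 ± 2.50 CPM) and Mir3093 (28.7 ± 8.08 CPM). Mir19b-2 stood between Mir124a-1 (2.21 ± 0.463 CPM) and Mir7651 (2.11 ± 0.392 CPM). Mir93 had 1 count on the opposite strand, in replicate 1.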
